A study of Mus musculus with 6 samples.

Results

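The transcripts of integrins, laminins and the proteins that tie basement membranes together were followed in mouse embryonic fibroblasts with and without a knockout of Fbxw7. Members were set by a rule on gene symbols, chosen with earlier results of these data known. The rule takes every integrin alpha and beta subunit, every laminin alpha, beta and gamma chain, and the linkers Nid1, Nid2, Hspg2, Agrn and Dag1. This rule found 42 of the 51997 named loci used, namely 26 integrin subunits, 11 laminin chains and 5 linkers. Mouse embryonic fibroblasts are connective-tissue cells grown out of embryos, and Fbxw7 encodes an F-box protein that picks the substrates of an SCF ubiquitin ligase. Total RNA was sequenced from 3 wild-type (WT) libraries and 3 Fbxw7 knockout (KO) libraries, and the design asks which transcripts depend on Fbxw7 in these cells. All cells were grown in DMEM with 15% FBS and 1% NEAA. Mouse strain, embryonic age, sex, the exons removed and the way the knockout was made are not stated in the sources used here.

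Basement membranes are thin extracellular sheets built on a laminin network and a type IV collagen network. Laminins are trimers of an alpha, a beta and a gamma chain, and nidogens, perlecan (Hspg2) and agrin (Agrn) link them to collagen, to heparan sulfate and to the cell. Cells hold on to this sheet and to fibronectin-rich matrix through integrins, each a pair of one alpha and one beta subunit in which the alpha subunit largely sets the ligand. Dystroglycan (Dag1) is a laminin receptor of a different kind, which binds through sugar chains added by a dedicated set of enzymes. Fibroblasts mainly use integrins for fibronectin, vitronectin and fibrillar collagen.

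Deposited totals were 55720129 to 64198455 estimated fragments per library. Levels are given as CPM (estimated counts scaled to a common library size with TMM factors) for comparing libraries, and as FPKM (fragments divided by transcript length and by library size) for comparing genes; errors of means are SD with n = 3, and errors of log2 fold changes are standard errors (SE). All 10 fibroblast markers examined reached 1 CPM in at least 1 library, with summed levels of 23449 to 31681 CPM in WT against 23458 to 25392 CPM in KO. Most of that sum was Col1a1 and Col1a2, and 3 of the 10 passed the threshold: Lum and Dcn rose, by 4.08 ± 0.65 and 1.56 ± 0.36 on the log2 scale (adjusted p = 0.00612 and 0.0252 in edgeR), and Vim fell by 0.83 ± 0.15 (adjusted p = 0.00972 in edgeR). Fbxw7 itself averaged 29.3 ± 0.868 CPM in WT against 26.4 ± 1.97 CPM in KO (log2 fold change -0.16 ± 0.10, adjusted p = 0.332 in edgeR); this value sums the whole gene, and since the exons removed are not given it does not check the labels. Replicate 3 stood apart in both genotypes: over 9634 genes the median absolute log2 difference was 0.0949 between WT replicates 1 and 2 and 0.0806 between KO replicates 1 and 2, but 0.168 to 0.222 between replicate 3 and the others of its genotype, and 0.218 to 0.274 between genotypes. Sex-linked transcripts also moved with the genotype, with Xist at 0.217 to 2.16 CPM in WT against 798 to 1046 CPM in KO. The Y-linked Ddx3y was at 81.8 to 109 CPM in WT against 24.0 to 35.9 CPM in KO. Mean KO levels of the Y-linked Ddx3y, Uty, Eif2s3y and Kdm5d were 31.7%, 36.3%, 44.0% and 50.9% of WT, so Y-linked RNA remained in KO beside Xist. Sex chromosome content and genotype therefore cannot be told apart in the results that follow. Nothing in the labels says that replicates were separate cultures or embryos, so the p-values measure spread between these samples alone, and that spread may be technical.

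Of the 42 members, 36 had enough fragments to be tested, and the other 6 (Itgb6, Itgad, Itgal, Itgam, Itgax and Lamc3) did not exceed 0.188 CPM in any library. Expression differed between genotypes for 13 members at an adjusted p under 0.05 in edgeR. Of these, 5 rose in KO (Itga7, Itgb2, Itgb4, Itgb7 and Lama5) and 8 fell, among them Itga1, Itga2, Itga4, Itga8, Lama3, Lamb3 and Nid1. The 13 are 36.1% of the tested members; over all 16787 genes tested the share was 16.1%, with 8.03% higher and 8.08% lower. With library size only as the scaling, 6 members rose and 5 fell beside 17.8% of all genes called, and 65.7% of those called genes were higher, against 49.8% with TMM. CPM values of the 2 genotypes did not overlap for 18 members, or 50% of those tested, against 37.7% of all genes. The median log2 fold change was -0.33 over the tested members and 0.0075 over all genes. A mean FPKM of at least 10 in a genotype was reached by 18 members, and 4 of these (Itga1, Itga4, Itga8 and Nid1) passed. The share to set beside this is 16.1% of all genes tested, whatever their level. The plot of log2 fold changes by role sets the members side by side.

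**Figure D1:**
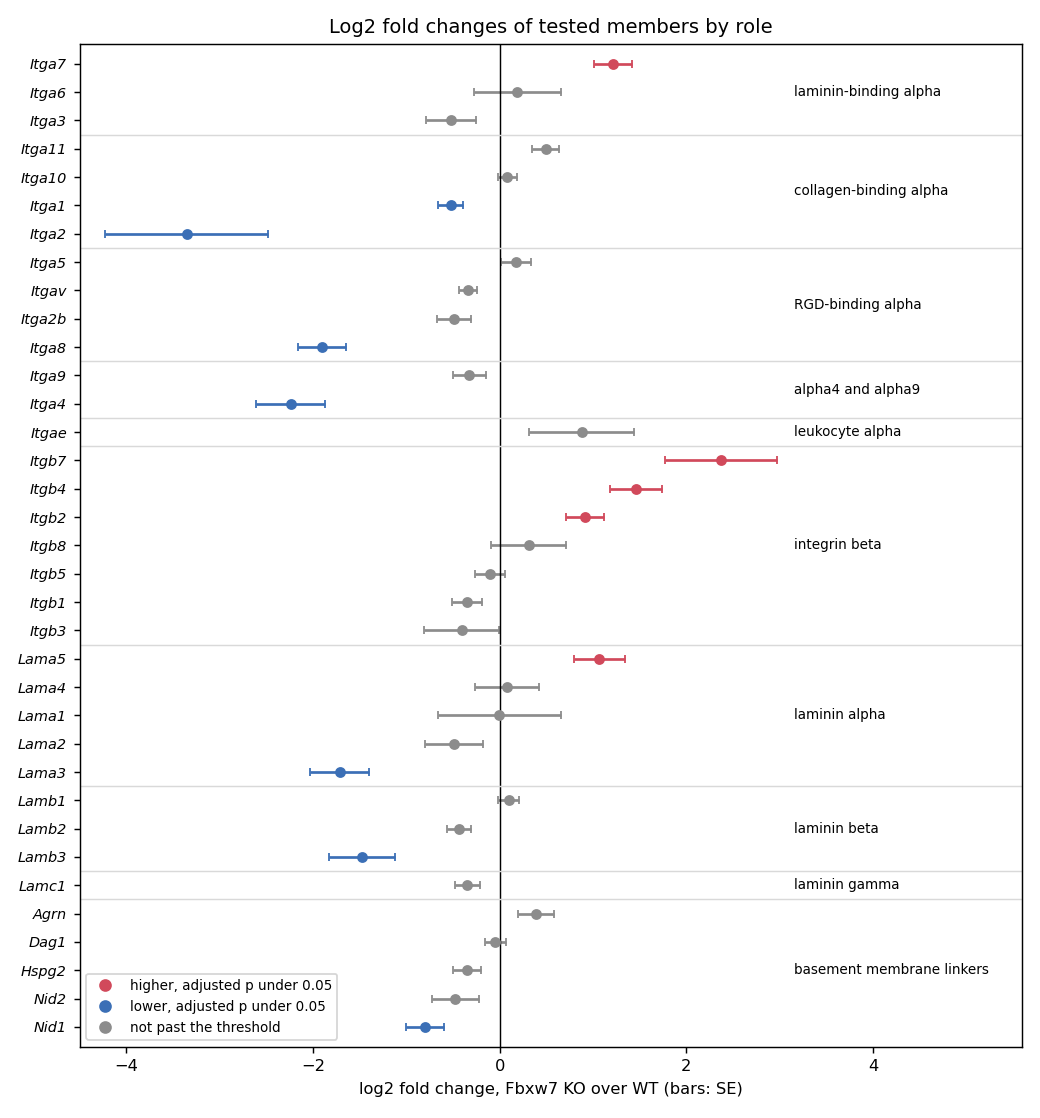
Log2 fold change (KO over WT, horizontal axis) of tested members, grouped by role, with bars for the SE and colours for members past an adjusted p of 0.05 in edgeR. Itga2, Itga4 and Itga8 lie farthest to the left at -3.35, -2.24 and -1.90, and Itgb7 lies farthest to the right at 2.37.

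The numbers called depended on single libraries. Without WT replicate 1, 2 members rose and 5 fell, beside 7.56% of all genes called. Without WT replicate 2, 2 rose and 3 fell, beside 7.39%, and without WT replicate 3, 5 rose and 11 fell, beside 18.5%. Without KO replicate 1, 1 rose and 3 fell, beside 6.79%. Without KO replicate 2, 2 rose and 3 fell, beside 8.5%, and without KO replicate 3, 6 rose and 8 fell, beside 19.1%. Of the 13 members past the threshold with all libraries, Itga4, Itga7 and Itga8 passed in all 6 of these runs. With replicate 3 of both genotypes left out, 8 rose and 18 fell, beside 41.3% of all genes called. When replicates 1 and 2 were added up within each genotype and counted as 1 library, 0 rose and 0 fell in edgeR, Itga4, Itga7 and Itga8 included, beside 2.68% of all genes called, and 13 members had an unadjusted p under 0.05.

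The widest fall among abundant members was that of Itga4 (chromosome 2, 79255426 to 79333123, plus strand, mm10), the alpha4 subunit that pairs with beta1 or beta7 and binds VCAM1 and a spliced segment of fibronectin. It measured 257, 258 and 217 CPM in WT replicates 1, 2 and 3, and 37.3, 30.8 and 87.0 CPM in the corresponding KO libraries. Every KO library was below every WT library, and KO replicate 3 was the highest of its genotype. The log2 fold change was -2.24 ± 0.37 (adjusted p = 0.00704 in edgeR), which leaves KO at 21.2% of WT, and it was -2.85 without KO replicate 3. In bulk RNA, fewer cells of a type and less RNA per cell cannot be told apart. Itga9, the related alpha9 subunit, averaged 56.4 ± 13.7 CPM in WT against 44.98 ± 2.49 CPM in KO with overlapping libraries (log2 fold change -0.33 ± 0.18, adjusted p = 0.252 in edgeR); without WT replicate 3 it passed the threshold as lower. Its locus overlaps that of Ctdspl, and no strand setting is given for the counting. Among these 2 related subunits, Itga4 made up 60.8% ± 3.38 of the summed FPKM in WT and 29.8% ± 11.7 in KO.

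The 4 subunits that recognise the RGD motif of fibronectin, vitronectin and related ligands are Itgav, Itga5, Itga8 and the platelet subunit Itga2b. Itga8 (chromosome 2, 12106632 to 12301922, minus strand), which pairs with beta1 and binds nephronectin, measured 230, 240 and 208 CPM in WT against 47.9, 45.01 and 88.5 CPM in KO. As for Itga4, the genotypes did not overlap and KO replicate 3 was the highest KO library. Itga8 fell by 1.90 ± 0.25 on the log2 scale (adjusted p = 0.00303 in edgeR), to 26.7% of WT. Itgav, the alpha subunit of the vitronectin receptors, was the most abundant alpha subunit in FPKM, at 86.5 ± 6.0 in WT and 65.4 ± 1.80 in KO. Its 6 libraries measured 536, 561 and 586 CPM in WT against 464, 412 and 454 CPM in KO. They did not overlap, but the difference did not pass the threshold (log2 fold change -0.34 ± 0.10, adjusted p = 0.0531 in edgeR). Itga5, the main fibronectin receptor subunit, averaged 186 ± 38.0 CPM in WT against 209 ± 22.9 CPM in KO (log2 fold change 0.17 ± 0.16, adjusted p = 0.503 in edgeR).

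Promoter sequences are shown for Itga4 and Itga8, which fell the most among abundant members, and for Lama5, the laminin chain that rose. They are the 250 bases upstream of the RefSeq start on GRCm38.p6, the same assembly as mm10, written 5′ to 3′ on the gene's strand, with capitals marking a GC box (GGGCGG on either strand), a motif bound by SP-family factors.
Itga4 (chr2:79255176-79255425, plus strand): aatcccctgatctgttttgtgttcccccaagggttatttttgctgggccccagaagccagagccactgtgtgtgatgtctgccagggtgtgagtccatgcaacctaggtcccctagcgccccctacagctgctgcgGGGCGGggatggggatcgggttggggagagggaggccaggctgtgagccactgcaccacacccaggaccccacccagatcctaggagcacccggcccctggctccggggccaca
Itga8 (chr2:12301945-12302194, minus strand): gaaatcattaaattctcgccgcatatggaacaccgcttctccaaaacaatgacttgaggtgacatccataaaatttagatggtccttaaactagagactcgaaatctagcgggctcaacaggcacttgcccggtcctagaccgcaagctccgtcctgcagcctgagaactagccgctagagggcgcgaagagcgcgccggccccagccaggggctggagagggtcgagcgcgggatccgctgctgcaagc
Lama5 (chr2:180225860-180226109, minus strand): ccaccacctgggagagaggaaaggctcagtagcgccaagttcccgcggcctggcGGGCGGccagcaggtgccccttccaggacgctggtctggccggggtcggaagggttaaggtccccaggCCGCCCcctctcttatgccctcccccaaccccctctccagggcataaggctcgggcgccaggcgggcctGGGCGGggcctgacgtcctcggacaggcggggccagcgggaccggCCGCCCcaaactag
The Itga4 window was 64% G or C with 6 CpG dinucleotides and held 1 GC box. The Itga8 window was 56.4% G or C with 18 CpG and held none. The Lama5 window was 72.4% G or C with 19 CpG and held 4. Over all promoter windows the medians were 52.4% G or C and 6 CpG. RefSeq entries were present for 27 members, with 32 windows, and for 8 of the 13 members past the threshold, with 9 windows. A GC box was in 15 of the 32 windows (46.88%) and in 3 of those 9, against 32.74% of all 32851 windows. The AP-1 motif TGANTCA, bound by JUN and FOS, was in 1 of the 32 windows and in 0 of those 9, against 6.749% of all windows. The E-box CACGTG, bound by MYC, was in 0 of the 32 windows, against 6.021% of all windows. Both strands were searched for each motif. These letter matches describe the windows only.

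The subunits that bind collagen with beta1 differed among themselves. Itga11 (the alpha11 subunit, a fibroblast receptor for fibrillar collagen) was the most abundant of them, at 28.1 ± 4.99 FPKM in WT and 38.2 ± 0.803 FPKM in KO. Its libraries measured 145, 163 and 110 CPM in WT against 195, 188 and 204 CPM in KO. The genotypes did not overlap, and the difference fell just short of the threshold (log2 fold change 0.49 ± 0.14, adjusted p = 0.055 in edgeR); without WT replicate 3 it passed. The locus of Itga1, the alpha1 subunit that prefers type IV collagen, measured 55.8, 60.7 and 46.5 CPM in WT against 34.7, 35.6 and 43.1 CPM in KO. It fell by 0.52 ± 0.13 on the log2 scale (adjusted p = 0.036 in edgeR). This value is uncertain as a measure of Itga1, because the locus also holds the coding genes Pelo and Gm49395, and the call was lost without WT replicate 1 or 2 or KO replicate 1 or 2.

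Itga2 (chromosome 13, 114833081 to 114932100, minus strand), the alpha2 collagen receptor subunit of platelets and epithelia, was scarce. It measured 1.08, 1.19 and 7.84 CPM in WT against 0.193, 0.522 and 0.269 CPM in KO. WT replicate 3 alone was more than all other libraries together, although the genotypes did not overlap in CPM. In FPKM the genotypes overlapped, at 0.340, 0.163 and 1.06 in WT against 0.0256, 0.194 and 0.0933 in KO. Itga2 fell by 3.35 ± 0.87 on the log2 scale (adjusted p = 0.0377 in edgeR), and by 1.79 without WT replicate 3, where it still passed; the call was lost without KO replicate 1, 2 or 3. WT replicate 3 was also the highest for the epithelial marker Krt19, at 3.49 CPM against 0.525 and 0.354 CPM in the other WT libraries and 1.13 to 1.30 CPM in KO. The 9 epithelial markers summed to 0.666 to 3.74 CPM in WT against 1.28 to 1.40 CPM in KO, Krt19 was the one of the 9 that exceeded 1 CPM, and Krt8 and Krt14 were at 0 in all libraries. The part of such cells in the Itga2 value was not tested. The Itga10 locus, which also holds other genes, averaged 27.2 ± 0.767 CPM in WT against 28.8 ± 2.17 CPM in KO (log2 fold change 0.08 ± 0.10, adjusted p = 0.61 in edgeR).

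The laminin-binding alpha subunits Itga3, Itga6 and Itga7 were low in both genotypes, with a summed FPKM of 3.91 ± 0.741 in WT and 5.27 ± 1.05 in KO. Itga7 (chromosome 10, 128933818 to 128958282, plus strand), the alpha7 subunit best known from muscle, measured 4.503, 5.73 and 3.72 CPM in WT against 12.04, 11.3 and 9.01 CPM in KO. Every KO library was above every WT library. Itga7 rose by 1.21 ± 0.20 on the log2 scale (adjusted p = 0.00687 in edgeR), to 232% of WT. The 7 skeletal muscle markers examined summed to at most 0.307 CPM in any WT library and at most 0.202 CPM in any KO library, and Myod1 and Myf5 were at 0 in all 6. Itga6, which pairs with beta1 or beta4, was at 7.11, 7.81 and 12.4 CPM in WT against 7.35, 5.02 and 18.9 CPM in KO (log2 fold change 0.19 ± 0.47, adjusted p = 0.82 in edgeR), with KO replicate 3 the highest library. Of the 5 alpha subunits typical of leukocytes, 4 were under the filter, and Itgae, which pairs with beta7, averaged 0.139 CPM in WT against 0.257 CPM in KO (log2 fold change 0.88 ± 0.56, adjusted p = 0.333 in edgeR).

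**Figure D2:**
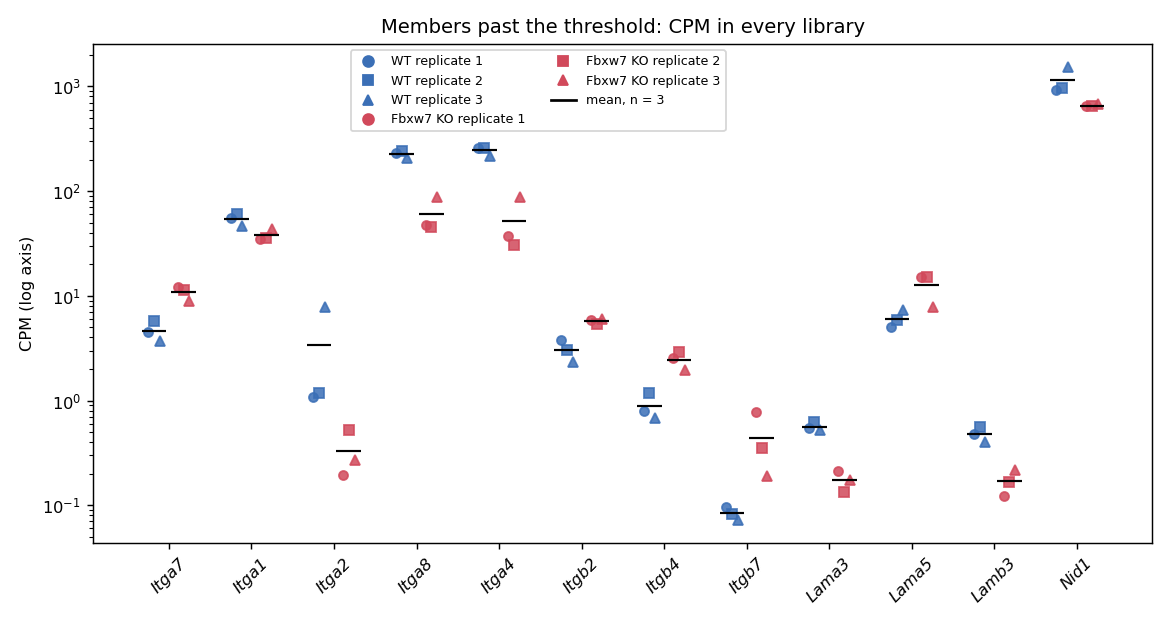
CPM in every library (log axis; symbols mark the replicate, lines the mean of 3 libraries) for members past the threshold. Genotypes do not overlap for any of them; the levels run from 0.0723 CPM for Itgb7 to 1540.2 CPM for Nid1, and WT replicate 3 stands above the others for Itga2 and Nid1.

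Among beta subunits, the abundant partners did not pass the threshold and 3 scarce ones rose. Itgb1 (chromosome 8, 128685654 to 128733200, plus strand), the common partner of most alpha subunits described here, had the highest FPKM of all members, at 551 ± 76.0 in WT and 417 ± 71.98 in KO. It measured 2036, 1903 and 2421 CPM in WT against 1503, 1466 and 2013 CPM in KO. KO replicate 3 overlapped the WT range, and the log2 fold change was -0.35 ± 0.16 (adjusted p = 0.184 in edgeR); without KO replicate 3 it passed as lower. Itgb5, a partner of alphav, averaged 440 ± 87.3 CPM in WT against 409 ± 42.6 CPM in KO (log2 fold change -0.11 ± 0.16, adjusted p = 0.7 in edgeR), and its sign turned without WT replicate 2, to 0.026.

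Itgb4, the beta4 subunit of epithelial hemidesmosomes, measured 0.796, 1.19 and 0.687 CPM in WT against 2.53, 2.90 and 1.94 CPM in KO. It rose by 1.46 ± 0.28 on the log2 scale (adjusted p = 0.0129 in edgeR), and the call was lost without WT replicate 1 or KO replicate 1. Itgb2, the beta subunit of leukocyte integrins, measured 3.82, 3.02 and 2.33 CPM in WT against 5.85, 5.41 and 6.04 CPM in KO. It rose by 0.91 ± 0.20 on the log2 scale (adjusted p = 0.0225 in edgeR), and the call was lost without WT replicate 2 or KO replicate 1 or 2. Over the 9 leukocyte markers, of which Adgre1 and Cd3e were at 0 in all libraries, the sum was lower in KO, at 10.9 to 13.6 CPM against 18.6 to 21.2 CPM in WT, most of it Lyz2; the part of such cells in the Itgb2 value was not tested. Itgb7, a partner of alpha4 and alphaE, was near the detection limit at 0.0955, 0.0833 and 0.0723 CPM in WT against 0.773, 0.354 and 0.188 CPM in KO. It rose by 2.37 ± 0.60 on the log2 scale (adjusted p = 0.0349 in edgeR), with 4.42 estimated fragments in the lowest library. Without KO replicate 1 the value was 1.68, and the call was lost whichever single library was left out, except KO replicate 3.

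Laminin transcripts were mostly those of Lama4, Lamb1, Lamb2 and Lamc1, the chains of mesenchymal and vascular laminins, and none of these 4 passed the threshold. Lamb1 was at 157 ± 22.2 FPKM in WT and 161 ± 9.30 FPKM in KO (log2 fold change 0.10 ± 0.11 on the CPM scale, adjusted p = 0.615 in edgeR). Lamc1, the gamma chain of most laminins, averaged 433 ± 70.6 CPM in WT against 341 ± 23.8 CPM in KO (log2 fold change -0.35 ± 0.14, adjusted p = 0.131 in edgeR); without WT replicate 3 it passed as lower. Lamb2 measured 236, 282 and 206 CPM in WT against 180, 186 and 168 CPM in KO. Its genotypes did not overlap, and the log2 fold change was -0.44 ± 0.13 (adjusted p = 0.0534 in edgeR); without WT replicate 3 it passed as lower. Lama4, the alpha chain of mesenchymal and endothelial laminins, measured 440, 463 and 159 CPM in WT against 384, 365 and 370 CPM in KO. WT replicate 3 was far below the rest, and the log2 fold change was 0.08 ± 0.35 (adjusted p = 0.907 in edgeR); without that library the sign turned, to -0.28.

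The laminin chains that did change were scarce. Lama5 (chromosome 2, 180176373 to 180225859, minus strand), the alpha chain of many adult epithelial basement membranes, measured 4.98, 5.81 and 7.35 CPM in WT against 15.0, 15.2 and 7.78 CPM in KO. In CPM, KO replicate 3 lay just above the WT range. In FPKM it was the highest library, with 1.19, 1.29 and 1.35 in KO against 0.402, 0.705 and 0.611 in WT. Lama5 rose by 1.07 ± 0.28 on the log2 scale (adjusted p = 0.0373 in edgeR), and the call was lost without WT replicate 1 or 2 or KO replicate 1 or 2.

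Lama3 and Lamb3, which encode chains of the laminin that anchors epithelia at hemidesmosomes, both fell. Lama3 measured 0.541, 0.625 and 0.524 CPM in WT against 0.211, 0.135 and 0.175 CPM in KO, a fall of 1.72 ± 0.31 on the log2 scale (adjusted p = 0.0107 in edgeR) whose call was lost without WT replicate 2. Lamb3 measured 0.477, 0.562 and 0.398 CPM in WT against 0.123, 0.168 and 0.215 CPM in KO, a fall of 1.47 ± 0.35 (adjusted p = 0.0287 in edgeR) whose call was lost without WT replicate 1 or 2 or KO replicate 1 or 2. The FPKM of Lamb3 did not separate the genotypes. It was 0.343, 0.342 and 0.180 in WT and 0.291, 0.0341 and 0.0800 in KO. Lamb3 had 7.17 to 33.9 estimated fragments per library, and its locus overlaps those of G0s2 and Hsd11b1. The epithelial marker sums given with Itga2 overlapped between genotypes, and the part of such cells in the Lama3 and Lamb3 values was not tested.

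Of the 5 linkers, Nid1 (chromosome 13, 13437551 to 13512269, plus strand), nidogen 1, which bridges laminin and type IV collagen, passed the threshold. It measured 914, 957 and 1540.2 CPM in WT against 642, 643 and 672 CPM in KO. All WT libraries were above all KO libraries, and WT replicate 3 was far above the other two. Nid1 fell by 0.80 ± 0.20 on the log2 scale (adjusted p = 0.0334 in edgeR), to 57.4% of WT. The call was lost without WT replicate 2 or KO replicate 1, 2 or 3, but without replicate 3 of both genotypes Nid1 passed with a fall of 0.54. Hspg2, perlecan, measured 977, 1224 and 1132 CPM in WT against 962, 931 and 719 CPM in KO (log2 fold change -0.35 ± 0.15, adjusted p = 0.15 in edgeR). Agrn, agrin, measured 601, 716 and 494 CPM in WT against 866, 899 and 606 CPM in KO (log2 fold change 0.39 ± 0.19, adjusted p = 0.209 in edgeR); without KO replicate 3 it passed as higher. Dag1, which encodes both dystroglycan subunits, averaged 256 ± 31.5 CPM in WT against 248 ± 7.07 CPM in KO (log2 fold change -0.05 ± 0.11, adjusted p = 0.818 in edgeR), and its sign turned with library size only as the scaling, to 0.052, and without WT replicate 2, to 0.048. The 9 tested members that had a mean FPKM under 10 and did not pass, Itga6 and Itgae among them, had log2 fold changes of -0.52 to 0.88 and adjusted p from 0.112 to 0.997 in edgeR.

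Among 8 endothelial markers examined, Kdr and Tek were past the threshold as lower in KO. The 8 summed to 7.69 to 10.01 CPM in WT against 1.39 to 2.04 CPM in KO. Most of the WT sum was Kdr and Tek, at 5.58 and 1.87 CPM in WT against 0.708 and 0.335 CPM in KO. Vwf did not pass (adjusted p = 0.175 in edgeR). Pecam1, Cdh5 and Emcn were too low to test, at no more than 0.167 CPM in any library. Tie1 and Cldn5 were at 0 in all libraries. The part of endothelial cells in the falls of Itga1, Itga4 and Nid1 was not tested.

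The make-up of each receptor and laminin group was described by shares of summed FPKM, leaving out loci shared with other coding genes; no test was run on shares. The 15 alpha subunits summed to 242 ± 11.5 FPKM in WT and 183 ± 4.98 FPKM in KO, and the 8 beta subunits to 697 ± 47.1 and 551 ± 61.5 FPKM. Itgav held 35.7% ± 1.54 of the alpha total in WT and 35.7% ± 0.95 in KO. Itga8 went from 15.7% ± 0.98 to 5.47% ± 2.27 and Itga4 from 10.2% ± 1.14 to 2.77% ± 1.53. Itga11 went from 11.6% ± 1.94 to 20.9% ± 0.20 and Itga5 from 17.1% ± 3.58 to 24.7% ± 3.0. Itga8 and Itga4 lost share and Itga11 gained share with no overlap between genotypes. Itga5 gained with KO replicate 3 at 21.2258% against 21.2027% in WT replicate 3. Because the alpha total was lower in KO, a subunit can gain share without a rise of its own. In FPKM Itga5 was at 41.4 ± 9.09 in WT and 45.2 ± 4.78 in KO. Lamb1 held 74.5% ± 0.55 of the laminin beta total in WT and 79.7% ± 0.16 in KO, and Lamb2 held 25.3% ± 0.59 and 20.2% ± 0.11. Lamc1 held 93.7% of the gamma total in WT and 94.4% in KO, and Lama4 held 86.5% ± 6.54 and 92.5% ± 2.62 of the alpha total. Among linkers, Nid1 held 43.0% ± 8.99 in WT and 29.5% ± 3.153 in KO, and Agrn held 25.2% ± 5.71 and 38.8% ± 3.57.

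**Figure D3:**
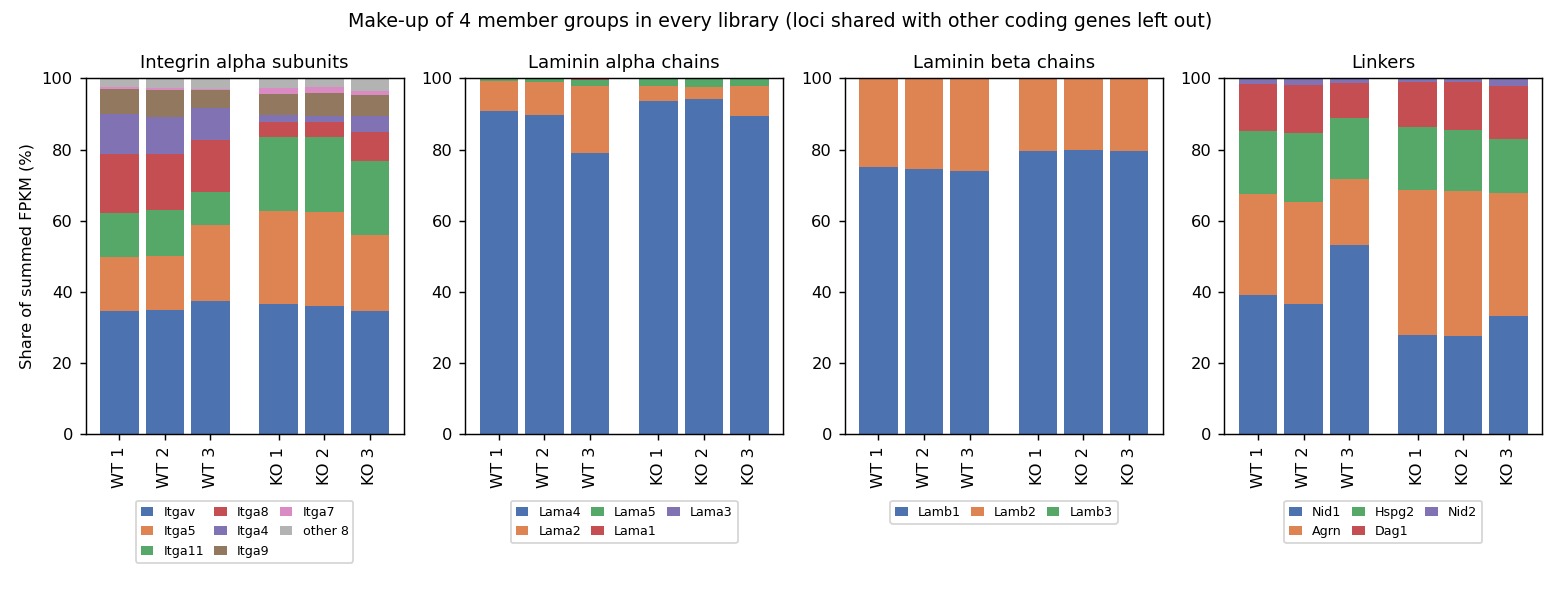
Share of the summed FPKM (%, stacked bars) held by each gene of 4 member groups in each of the 6 libraries, without loci shared with other coding genes. Itga4 and Itga8 take a smaller part of the integrin alpha bars in KO and Itga11 a larger one, and Lamb1 takes 74.5% of the laminin beta bar in WT and 79.7% in KO.

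Partner genes were examined as 3 lists, also chosen with earlier results of these data known. Of 35 integrin activators, adaptors and kinases, 30 were tested, 1 rose and 6 fell (23.3% called, beside 16.1% of all genes). Their median log2 fold change was -0.32, with 25 of the 30 below 0. Over all genes the median was 0.0075, with 8251 of 16787 below 0. The median over all genes was 0.10 with library size only as the scaling. Parvb, beta-parvin, which joins integrin-linked kinase to actin, went from 11.0 ± 1.21 CPM in WT to 1.86 ± 0.681 CPM in KO (log2 fold change -2.56 ± 0.28, adjusted p = 0.00146 in edgeR). Ptk2b, the focal adhesion kinase relative PYK2, went from 80.7 ± 20.5 to 40.0 ± 0.666 CPM (log2 fold change -1.01 ± 0.17, adjusted p = 0.00716 in edgeR). Rsu1, which binds the PINCH adaptors, went from 209 ± 42.6 to 117 ± 10.4 CPM (log2 fold change -0.84 ± 0.15, adjusted p = 0.0109 in edgeR). Its call was lost without KO replicate 1. Fermt3, the kindlin of blood cells, rose from 0.171 ± 0.0448 to 0.552 ± 0.0824 CPM (log2 fold change 1.68 ± 0.32, adjusted p = 0.0131 in edgeR). Its call was lost without WT replicate 2 or KO replicate 2. The other 3 that fell, Lims1, Parva and Tgfb1i1, are named after their values were seen. Leaving out single libraries gave 0 to 2 that rose and 2 to 10 that fell.

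Of 27 genes of the dystroglycan complex and its sugar-adding enzymes, 23 were tested, 2 rose and 3 fell. That is 21.7% called, beside 16.1% of all genes, with a median log2 fold change of -0.07. Utrn, utrophin, which links dystroglycan to actin outside muscle, fell from 375 ± 44.8 to 205 ± 34.6 CPM (log2 fold change -0.87 ± 0.15, adjusted p = 0.00792 in edgeR). Of the glycosylation enzymes, Rxylt1 fell from 102 ± 9.40 to 74.2 ± 4.13 CPM (log2 fold change -0.46 ± 0.10, adjusted p = 0.0209 in edgeR). B4gat1, which primes the laminin-binding sugar chain, rose from 27.9 ± 2.61 to 38.8 ± 2.73 CPM (log2 fold change 0.48 ± 0.11, adjusted p = 0.0244 in edgeR). Utrn passed whichever single library was left out. The call of Rxylt1 was lost without WT replicate 1 or KO replicate 1 or 2, and that of B4gat1 without WT replicate 1 or 2 or KO replicate 1 or 2. Leaving out single libraries gave 0 to 4 that rose and 1 to 6 that fell.

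Of 33 other basement membrane and integrin ligand genes, 28 were tested, 6 rose and 9 fell. That is 53.6% called, beside 16.1% of all genes, with a median log2 fold change of 0.25. Spp1, osteopontin, a ligand of alphav, alpha4, alpha8 and alpha9 integrins, measured 51.4, 42.7 and 79.3 CPM in WT against 520, 486 and 471 CPM in KO. It rose by 3.09 ± 0.23 on the log2 scale (adjusted p = 0.000283 in edgeR). Col4a1, a type IV collagen chain and the network partner of laminin, fell from 1027 ± 91.1 to 438 ± 33.7 CPM (log2 fold change -1.23 ± 0.12, adjusted p = 0.000783 in edgeR). Fras1 and Frem1, which form an embryonic basement membrane complex, both fell. Fras1 went from 56.1 ± 23.3 to 9.32 ± 1.37 CPM (log2 fold change -2.59 ± 0.32, adjusted p = 0.0024 in edgeR). Frem1 went from 39.8 ± 15.3 to 8.28 ± 1.21 CPM (log2 fold change -2.26 ± 0.30, adjusted p = 0.00303 in edgeR). These 4 passed whichever single library was left out. Some ligands of alpha1, alpha4 and alpha8 are named here after their values were seen, and other ligands of the subunits that fell are not listed. Of the type IV collagen chains, which alpha1 prefers, Col4a2 fell like Col4a1 (log2 fold change -1.07 ± 0.15, adjusted p = 0.00409 in edgeR). Col4a6 rose (log2 fold change 1.98 ± 0.47, adjusted p = 0.0271 in edgeR), and Col4a4 and Col4a5 did not pass. Npnt, nephronectin, the ligand of alpha8, averaged 1.89 ± 1.44 CPM in WT against 6.19 ± 4.004 CPM in KO, with KO replicate 3 at 10.8 CPM (adjusted p = 0.0937 in edgeR). Vcam1, a ligand of alpha4, averaged 267 ± 37.0 CPM in WT against 363 ± 34.4 CPM in KO (log2 fold change 0.45 ± 0.13, adjusted p = 0.0545 in edgeR). Fn1, fibronectin, averaged 7461 ± 1053 CPM in WT against 11743 ± 2826 CPM in KO (log2 fold change 0.65 ± 0.21, adjusted p = 0.0703 in edgeR).

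**Figure D4:**
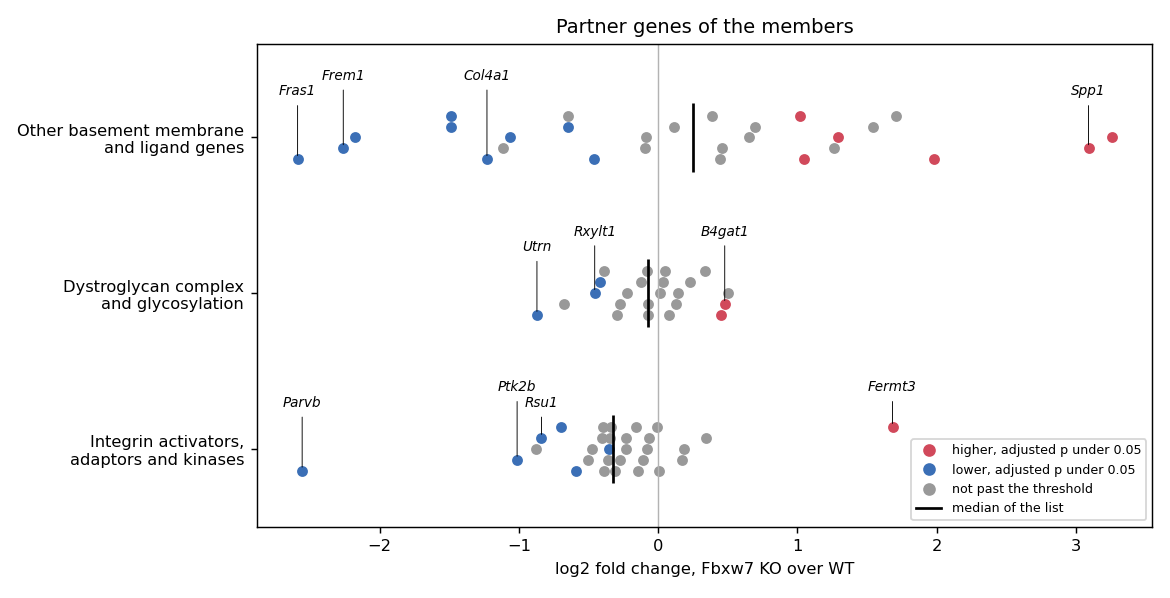
Log2 fold change (KO over WT, horizontal axis) of every tested gene in the 3 partner lists, coloured by the edgeR call, with a line at the median of each list. The medians lie at -0.32, -0.07 and 0.25 from the adaptor list to the ligand list, and Spp1 at 3.09 is the farthest to the right of the genes named.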

How the data were processed

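RNA of 3 WT and 3 Fbxw7 KO fibroblast libraries was made with Trizol, a column kit and the Illumina TruSeq protocol, per the labels. The submitters' processing notes name TopHat2 2.1.1, SAMtools 1.5, deepTools, Cufflinks 2.2.1 and the build mm10; the annotation and strand setting are not given in the sources used here. Deposited by the authors were estimated counts (expected counts per locus, which need not be whole) and FPKM, per the file headers. The tables hold 30 further columns of variances and confidence bounds, which were not used. How reads shared by several genes were divided is not stated. In each library 88.8% to 89.4% of the estimated counts up to 1000 lay within 0.05 of a whole multiple of 1 step, which shows that 1 factor had been applied per library; before scaling the totals were 51152392 to 70625782. Of 53323 loci, 1317 without a name (at most 3.13e-05% of fragments) and 9 named loci marked HIDATA were left out, and 55 marked FAIL were kept.

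Estimated counts were rounded and fitted across all genes in R 4.3.3 with edgeR 4.0.16 (low genes removed by filterByExpr, TMM scaling, robust quasi-likelihood F test, two-sided, genotype as the only term), with Benjamini-Hochberg adjustment over all 16787 genes and a threshold of 0.05. The SE was computed as the size of the log2 fold change over the root of its F statistic. The procedure was also run on simulated counts, drawn independently for each library. Those counts hold no gap between replicate 3 and the others, so the run cannot show how that gap affects the calls. Counting precision covers counting error only, since no molecular identifiers are named. Gene positions are from GENCODE M21, in which all 42 members matched by symbol, and promoters from RefSeq; protein sequences were not used here. Of the members, 3 (Itga1, Itga10 and Itgam) share a locus with another coding gene.

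The members and all lists were chosen with earlier results of these data known. Values are printed for members past the threshold or with a mean FPKM of at least 10 in a genotype, for the most abundant of a role, and for up to 4 genes of each partner list with the smallest adjusted p; some genes that this rule names are not reported here. Alternatives were other scalings, filters and libraries, a replicate block, DESeq2 1.42.0, and limma 3.58.1 on log2(FPKM + 1) or log2(FPKM + 0.1), with a mean FPKM of at least 1 or no filter. Tables were made with Python 3.11.15.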

Additional observations from a re-analysis of the deposited data

How the results depend on the processing

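No member past the threshold reversed its sign in any alternative run. Counts that moved by more than 1.5 times are given here. Without replicate 3 of both genotypes, 6993 genes were called in place of 2705, with 8 members higher and 18 lower; in the partner lists 2 adaptors rose and 14 fell, 6 dystroglycan genes rose and 7 fell, and 13 ligand genes rose. With replicates 1 and 2 of each genotype summed, 478 genes were called (2.68%), with 0 members higher and 0 lower in edgeR at the adjusted threshold and 13 members at an unadjusted p under 0.05; in the lists 0 adaptors rose and 1 fell, 0 dystroglycan genes rose and 0 fell, and 1 ligand gene rose and 2 fell. In these 2 runs groups hold 2 libraries each, and in the summed run the lone replicate 3 of a genotype forms its group with 1 summed library. With limma on log2(FPKM + 1), log2(FPKM + 0.1) and log2(FPKM + 1) without a filter, 1562, 1615 and 1182 genes were called. These are 11.9%, 12.3% and 4.28% of the 13176, 13176 and 27649 genes tested. Members tested were 26, 26 and 42 in place of 36, of which 2, 1 and 2 rose and 3, 4 and 2 fell. In the lists 0, 0 and 0 adaptors rose, 1, 1 and 0 dystroglycan genes rose, and 2, 2 and 2 ligand genes rose. In limma without a filter 3 adaptors and 1 dystroglycan gene fell. With library size only, beside 17.8% of all genes called, 5 members fell and 2 adaptors rose. Without a count filter, beside 9.55% of all genes called, 1 dystroglycan gene rose and 5 fell. With a CPM of at least 1 in 3 libraries, beside 17.4%, 0 adaptors rose. With the DESeq2 Wald test, beside 12.5%, 11 adaptors fell. Of all called genes 49.8% were higher, against 65.7% with library size only and 37.6% with either filtered limma fit.

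Leaving out 1 library at a time gave 1169 to 3282 genes called, 1 to 6 members higher and 3 to 11 lower, 0 to 2 adaptors higher and 2 to 10 lower, 0 to 4 dystroglycan genes higher and 1 to 6 lower, and 4 to 8 ligand genes higher and 5 to 10 lower. Itga8 and Itga7 passed in 19 of 20 alternatives and Itga4 in 18; Nid1 passed in 12. Parvb, Spp1 and Col4a1 passed in all 20. Signs were followed for members past the threshold or with a mean FPKM of at least 10 in a genotype. They were not followed for the other 9 tested members. Among the members followed, Dag1, Itgb5 and Lama4 reversed sign. Dag1 was at 0.052 with library size only. It ran from -0.13 to 0.048 over the runs without 1 library, above 0 without WT replicate 2. Itgb5 ran from -0.25 to 0.026 over those runs, above 0 without WT replicate 2. Lama4 ran from -0.28 without WT replicate 3 to 0.31 without WT replicate 2, and was at -0.27 without replicate 3 of both genotypes. The adjusted p of Lama4 over its alternatives ran from 0.00968 to 0.952 in edgeR, DESeq2 or limma. The cause of these reversals was not tested.

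Same-numbered libraries correlated at 0.0237, 0.0979 and 0.0788 in their deviations from the genotype means, and libraries of different numbers at -0.123 to 0.0760. KO replicates 2 and 3 correlated best with WT replicates 2 and 3, but KO replicate 1 correlated best with WT replicate 2 (0.0760). All of these values were small, and the numbers were not taken to pair libraries. With the replicate number as a block, 2356 genes were called (14% of those tested), and 4 members rose and 5 fell. Members at or under 0.188 CPM were too shallow to test, and Itgb7, Lama3 and Lamb3 rest on few fragments.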
